A study of Homo sapiens with 4 samples.

Results

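The immune recognition genes followed here were 10 in number: CD96, a receptor of lymphocytes, and 9 genes for ligands through which tumour cells restrain or attract lymphocytes, natural killer cells and macrophages. They were chosen by symbol, with their values in this comparison already known, so everything given for them below is a description and supports no claim about them as a group. All 10 were found among the 61471 gene names of the deposited count tables. The RNA came from the triple-negative breast cancer line MDA-MB-231, an established human line, grown in medium with serum. Both groups were of WT genotype by label and both were transfected with H2B-EGFP, a green-tagged histone, and with CMV-RFP, a red protein under a viral promoter. The EGFP positive group (2 libraries) was labelled as lacking increased extravasation, the escape of tumour cells from a vessel, and the EGFP negative group (2 libraries) as having it. The series title speaks of polyploid cells, but the labels used here give the ploidy of neither group, do not say how the groups were separated, and do not tell if libraries within a group were grown separately. EGFP status and extravasation status changed together and cannot be told apart. Any p-value reflects variation among these 4 libraries alone, possibly technical variation.

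CD96, TIGIT and CD226 are receptors of T cells and natural killer cells that compete for the same ligands. PVR (also called CD155) binds all of them, and NECTIN2 (CD112) binds TIGIT, CD226 and a further inhibitory receptor, PVRIG. CD226 activates the lymphocyte, and TIGIT and PVRIG restrain it. CD274 (PD-L1) and PDCD1LG2 (PD-L2) bind PD-1 and restrain T cells, CD276 (B7-H3) is a relative of theirs, and CD47 binds SIRPA on macrophages and restrains phagocytosis. MICA, MICB and ULBP2 are stress-induced ligands of NKG2D, which activates natural killer cells.

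Sequence before the start site is shown for the gene with the largest difference, for CD274, whose transcription is known to respond to interferon, and for the related pair MICA and MICB. The sequences are RefSeq promoters (GRCh38.p14, plus strand, up to 250 bases before the RefSeq start), shortened where the counting annotation already placed an exon. Capitals mark matches on either strand to any of 6 motifs. These were the TATA box written as TATAAA, the GC box written as GGGCGG, and the CCAAT box. The AP-1 motif was written as TGANTCA, and the GAS motif as TTCNNNGAA. The interferon response element was a pair of GAAA words with any 2 bases between them. The windows are chr3:111541947-111542149, chr9:5450292-5450502, chr6:31403345-31403594 and chr6:31497895-31498085. In the counting annotation MICA starts at 31399784 and MICB at 31494881. Both chr6 windows therefore lie before the RefSeq start but within the span of the counted gene.
CD96: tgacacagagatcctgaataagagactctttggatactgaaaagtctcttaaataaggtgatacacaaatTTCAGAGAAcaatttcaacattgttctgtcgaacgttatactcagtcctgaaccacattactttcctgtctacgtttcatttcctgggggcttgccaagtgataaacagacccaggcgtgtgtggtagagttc
CD274: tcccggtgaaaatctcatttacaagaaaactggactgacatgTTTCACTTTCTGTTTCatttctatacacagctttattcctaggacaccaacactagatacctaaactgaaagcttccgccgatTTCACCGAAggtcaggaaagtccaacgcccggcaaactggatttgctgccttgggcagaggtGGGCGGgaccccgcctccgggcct
MICA: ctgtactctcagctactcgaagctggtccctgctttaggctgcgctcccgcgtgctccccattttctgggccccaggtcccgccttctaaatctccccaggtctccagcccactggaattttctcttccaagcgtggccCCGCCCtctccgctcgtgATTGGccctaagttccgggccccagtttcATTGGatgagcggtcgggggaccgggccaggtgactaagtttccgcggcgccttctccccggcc
MICB: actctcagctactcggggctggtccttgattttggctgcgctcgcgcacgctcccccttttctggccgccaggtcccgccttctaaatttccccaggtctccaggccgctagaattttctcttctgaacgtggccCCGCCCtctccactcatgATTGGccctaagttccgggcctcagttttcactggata
The stretch of capitals in the first part of the CD274 window holds 2 overlapping matches to the interferon response element, on the minus strand. That motif was found in 3.02% of 35116 promoters of 250 bases, and in no other of the 9 genes with a RefSeq promoter. GAS matches, found in 6.57% of promoters, were present once in CD96 and once in CD274. MICA and MICB were identical at 209 of 246 aligned bases (85%) over their 250-base windows, and share a GC box (motif in 42.6% of promoters) followed by a CCAAT box (32%). CD96 had 6 CpG pairs in its 250 bases, the fewest of these genes, against 16 in CD274, 27 in PVR and 39 in CD47. Among all promoters 41.1% had as few as CD96 or fewer. A match of letters is not a binding site, and no binding or methylation was measured.

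CD96 was close to silent in EGFP positive cells and clearly transcribed in EGFP negative cells. Its gene lies on GRCh38 chromosome 3, 111542150 to 111652372. Its counts were 3 and 9 in EGFP positive libraries 1 and 2, and 212 and 242 in EGFP negative libraries 1 and 2. In CPM, the count scaled to a common library total with TMM factors, that was 0.26 and 0.781 against 17 and 20.7. Both EGFP negative libraries lay far above both EGFP positive ones, whose first library stood at the floor of 3 counts. The means were 0.52 ± 0.369 and 18.9 ± 2.62 CPM (SD, n = 2), and the log2 fold change, EGFP negative over EGFP positive throughout, was 5.15 ± 0.32 (SE). Only 7 of 16413 tested genes had a larger absolute change, so that CD96 ranked at 8. CD96 had enough counts to be tested only through its EGFP negative libraries, so this rank is a description and no test. The ratio of summed counts, 454 against 12 before scaling, was 36.2 with a 95% counting interval of 20.5 to 70.6. Its size rested on the few EGFP positive counts, with a log2 fold change of 4.58 when EGFP positive library 1 was left out and 6.13 when library 2 was. A few cells with much CD96 RNA and many cells with little cannot be told apart in bulk RNA.

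**Figure D1:**
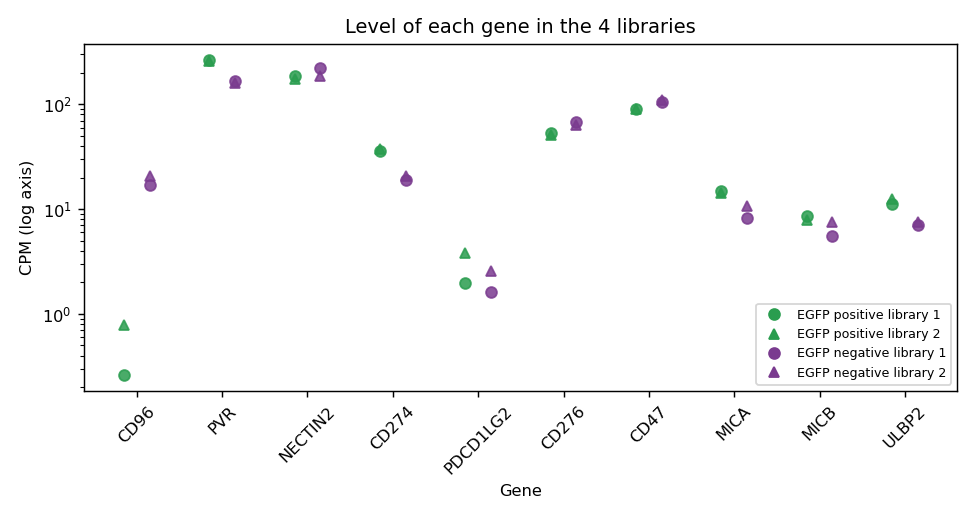
Level of each of the 10 genes in CPM on a log axis, with circles for library 1 and triangles for library 2, EGFP positive in green and EGFP negative in purple. CD96 rises from under 1 CPM to 17 and 20.7 CPM, while the other 9 genes keep to the same order of magnitude in both groups.

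Other lymphocyte genes were nearly absent. Of 29 markers of lymphocytes and natural killer cells, 15 had 0 counts in all 4 libraries, among them CD3D, CD3E, CD3G, CD2, CD4, GZMB, PRF1, KLRD1 and NCR1. PTPRC, the leukocyte common antigen, had 2 to 6 counts per library. The summed level of the 29 was 7.2 to 7.79 CPM in EGFP positive and 8.31 to 8.92 CPM in EGFP negative libraries. Only 3 markers had enough counts to be tested (edgeR, adjusted over all genes): TRAC was higher in EGFP negative cells (1.9 and 2.34 against 6.43 and 5.48 CPM, adjusted p = 0.0019), IL7R was lower (2.42 and 1.56 against 0.161 and 0 CPM, adjusted p = 9.3e-04), and CD8A did not pass (adjusted p = 0.4). Of 10 myeloid markers 4 were at 0 throughout, and their sum went from 1.56 to 3.11 CPM in EGFP positive to 8.44 to 9 CPM in EGFP negative libraries, mostly through CSF1R, the receptor for macrophage growth factor (adjusted p = 5.8e-04 by edgeR). The part of other cell types in the CD96 difference was not tested beyond these values. In contrast, the line's own markers were abundant in every library, VIM at 4180 to 6020 CPM and AXL at 1560 to 1710 CPM, although SPARC had only 2 to 5 counts. Of 6 genes known to be low or absent in such cells, ESR1, PGR, CDH1 and FOXA1 had at most 3 counts per library, while ERBB2 was at 80.6 to 99.2 CPM and GATA3 at 9.34 to 11.2 CPM.

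PVR, the main ligand of CD96, was lower where CD96 was higher. It stood at 266 and 259 CPM in EGFP positive and at 165 and 161 CPM in EGFP negative libraries, and the groups were well apart (log2 fold change -0.69 ± 0.08, SE). The gene occupies chromosome 19, 44643798 to 44666162. NECTIN2, which lies 180 kb further along, was at 187 and 174 CPM against 222 and 188 CPM, a log2 fold change of 0.18 ± 0.09 (SE). That value was 0.06 without EGFP negative library 1 and 0.31, then past the threshold, without EGFP negative library 2. Its lowest EGFP negative library was within 1 CPM of its highest EGFP positive one. PVR made up 58.7 and 59.7% of the summed CPM of these 2 ligands in EGFP positive libraries and 42.5 and 46.1% in EGFP negative ones. Thus the larger share of ligand counts passed from PVR to NECTIN2, in a measure that no scaling between libraries affects. It is not corrected for exon length, which is 7312 bases for PVR and 3531 for NECTIN2. Fragments touching exon bases shared with another gene are also left out by default. Such bases number 2028 in PVR and 128 in NECTIN2. Which gene holds the larger share may depend on both limits. Per exon length, the ratio of PVR to NECTIN2 was 0.686 and 0.717 in EGFP positive and 0.358 and 0.412 in EGFP negative libraries. By that measure NECTIN2 was ahead in both groups, and its lead was wider in EGFP negative cells. That length includes the shared bases. With those left out, mean levels of PVR and NECTIN2 were 49.6 and 53.1 CPM per kilobase in EGFP positive cells. In EGFP negative cells they were 30.8 and 60.3. The lead of NECTIN2 in EGFP positive cells was then small.

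Both PD-1 ligands have their genes on chromosome 9, 40 kb apart. CD274 was at 35.7 and 37.4 CPM in EGFP positive and at 19 and 20.9 CPM in EGFP negative libraries. In EGFP negative cells 54.5% of the level remained (log2 fold change -0.88 ± 0.12, SE), the largest decrease among the 10 genes. PDCD1LG2 had only 23 and 44 counts against 20 and 30, or 1.99 and 3.82 against 1.61 and 2.57 CPM. Its groups overlapped, and its log2 fold change of -0.48 ± 0.39 (SE) turned to 0.06 without EGFP positive library 2. CD274 held 94.7 and 90.7% of the counts of this pair in EGFP positive libraries and 92.2 and 89.1% in EGFP negative ones.

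CD276 and CD47 were slightly higher in EGFP negative cells, opposite to CD274. CD276 was at 52.7 and 51.1 CPM against 67.9 and 63.7 CPM (log2 fold change 0.34 ± 0.10, SE). CD47 was at 89.6 CPM in both EGFP positive libraries and at 106 and 111 CPM in the EGFP negative ones (0.27 ± 0.09, SE). Neither gene overlapped between groups, which was also so for 57.4% of all tested genes. Per exon length, the ratio of CD276 to CD274 within a library was 1.24 and 1.15 in EGFP positive and 3 and 2.55 in EGFP negative libraries. That of CD47 to CD274 was 1.75 and 1.67 against 3.88 and 3.7.

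**Figure D2:**
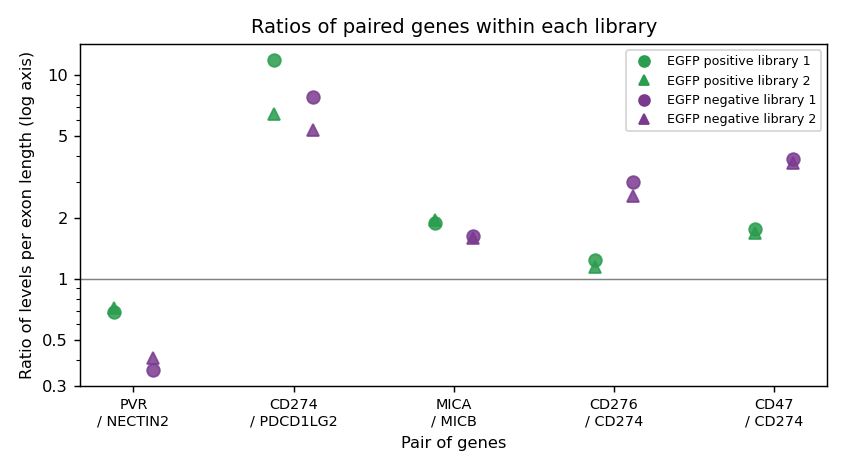
Ratio of 2 genes' levels per exon length within each library, on a log axis where the line marks equal levels. Exon length is the full length, with bases shared with other genes included, which lowers PVR most. PVR to NECTIN2 lies at 0.686 and 0.717 in EGFP positive and 0.358 and 0.412 in EGFP negative libraries, CD276 and CD47 gain on CD274, and the ratio of MICA to MICB changes little.

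Of the 3 NKG2D ligands, MICA and ULBP2 were past the threshold of the fit in the lower direction and MICB was not. MICA was at 14.9 and 14.1 CPM against 8.19 and 10.8 CPM (log2 fold change -0.61 ± 0.18, SE). MICB was at 8.65 and 7.9 CPM against 5.54 and 7.46 CPM (-0.35 ± 0.21, SE). ULBP2 was at 11.2 and 12.4 CPM against 7.07 and 7.46 CPM (-0.70 ± 0.18, SE). None of the 3 overlapped between groups (as for 57.4% of all tested genes), though MICB came within 0.5 CPM of doing so. Together they had 34.8 and 34.4 CPM in EGFP positive and 20.8 and 25.7 CPM in EGFP negative libraries. MICA and MICB are alike in sequence and vary much between people, and reads that fit both or neither reference copy may be missing, so their levels are uncertain.

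In the fit across all genes, 7 of the 10 passed an adjusted p of 0.05 (edgeR), where 18.9% of all tested genes did. CD96, CD276 and CD47 were past it in the higher direction (9.4% of all genes) and PVR, CD274, MICA and ULBP2 in the lower (9.46%). NECTIN2, PDCD1LG2 and MICB were not. Groups did not overlap for 9 of the 10 and for 57.4% of tested genes. The median log2 fold change was -0.42 over the 10 and 0 over all tested genes. CD96 passed the filter on low counts only through its EGFP negative libraries, so for that gene passing and differing were linked. With DESeq2, or without either EGFP positive library, only CD96, PVR and CD274 were past 0.05, and these 3 were past it in each of the 11 alternatives. CD276, CD47, MICA and ULBP2 depended on those choices. With no filter on low counts 4 were past it, ULBP2 in addition to those 3.

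**Figure D3:**
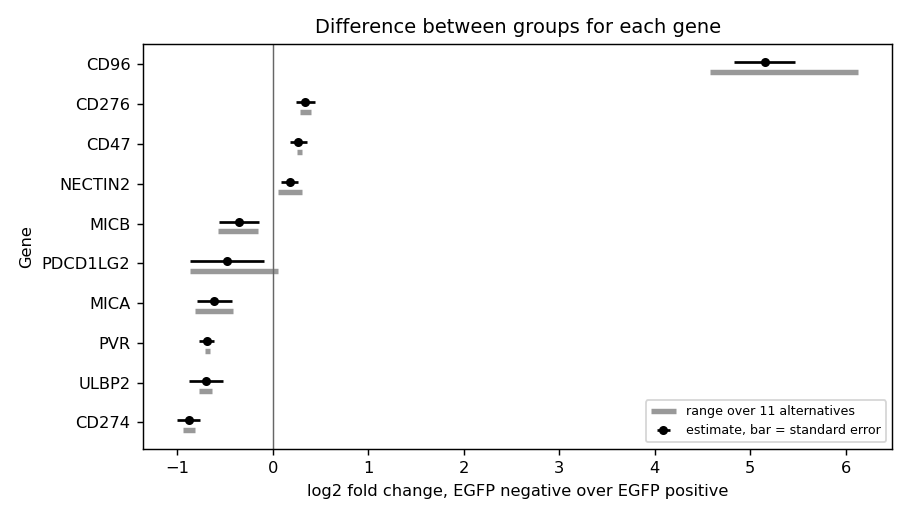
Log2 fold change of each gene (EGFP negative over EGFP positive, points with standard error) and its range over 11 alternatives (grey bars). CD96 at 5.15 stands apart, the other 9 lie between -0.88 and 0.34, and only the bar of PDCD1LG2 crosses 0.

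Levels were compared between genes per kilobase of exon on the CPM scale, leaving out exon bases that another gene shares, since fragments touching 2 genes are not assigned by default. PVR loses most by this: 2028 of its 7312 exon bases coincide with ENSG00000279095, which had 0 counts throughout. Fragments on the shared bases are not assigned to that gene either, so its 0 does not show how many fell there. NECTIN2 (53.1) and PVR (49.6) led in EGFP positive cells, followed by CD47 (16.9), CD276 (11.8), CD274 (9.92), ULBP2 (8.86), MICA (6.27), MICB (3.26), PDCD1LG2 (1.19) and CD96 (0.111). In EGFP negative cells the order was NECTIN2 (60.3), PVR (30.8), CD47 (20.5), CD276 (15), ULBP2 (5.44), CD274 (5.41), MICA (4.11), CD96 (4.01), MICB (2.56) and PDCD1LG2 (0.859). There ULBP2 and CD274 overlapped in their libraries (5.3 to 5.58 and 5.14 to 5.67), as did MICA and CD96 (3.55 to 4.68 and 3.62 to 4.4). Thus CD96 went from last place to a level like that of MICA, well below its ligand PVR.

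The wider pathways were read from 9 lists with 126 genes besides the 10, of which 72 had enough counts to be tested. Among them edgeR found 15 with more and 11 with less RNA in EGFP negative cells (36.1% against 18.9% of all tested genes), with a median log2 fold change of 0.05. The lists were chosen with earlier results of these data known. The larger share is therefore a description and supports no claim about the pathways. Leaving out EGFP positive library 1 gave 7 higher and 3 lower, and leaving out library 2 of that group gave 7 and 5. Adjusted p-values below are edgeR's, over all genes tested. Values are given below for 24 of these 26 genes, and of the 24, 9 passed in all 11 alternatives: NECTIN1, MMP14, THBS1, QPCTL, HIF1A, TNFSF15, LGALS3, LGALS1 and CD58.

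Among other genes of the CD96 axis, 4 of 12 could be tested, 2 higher and 0 lower. NECTIN1, a nectin reported to bind CD96, rose from 61.7 and 62.1 to 102 and 95 CPM (adjusted p = 1.7e-04). AFDN, afadin, which links nectins to actin, rose from 93.3 and 88 to 111 and 109 CPM (adjusted p = 0.041). Of the receptors, TIGIT and PVRIG had 0 counts in all libraries, which allows up to 0.241 to 0.26 CPM each, and CD226 had 3 to 8 counts. Thus CD96 was the only one of these 4 lymphocyte receptors that reached the tested range. The receptors of B7 ligands, 8 in all, gave no testable gene, with PDCD1 at 0 counts throughout.

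In the B7 and butyrophilin families 1 was higher and 2 lower of 8 tested. VSIR (VISTA), an inhibitory ligand, fell from 20.2 and 13.9 to 10.4 CPM in both EGFP negative libraries (adjusted p = 0.016). BTN2A1 fell from 35.7 and 33.9 to 26.2 and 26.6 CPM (adjusted p = 0.026). BTN3A2 rose from 19.6 and 15.5 to 23.6 and 26.3 CPM (adjusted p = 0.028). CD80 and CD86, ligands of CD28 and CTLA4, were at 0 counts.

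Of the other NKG2D ligands, 1 of 5 tested was higher and 0 lower. RAET1E (ULBP4) rose from 1.56 and 1.74 to 4.26 and 2.66 CPM (adjusted p = 0.049), a call that 6 of the 11 alternatives lost. ULBP3 was at 13.3 and 14.1 against 14.1 and 15.5 CPM, short of the threshold (adjusted p = 0.71). RAET1L, with 7 to 15 counts per library, was at 0.952 and 1.3 against 0.562 and 0.686 CPM and did not pass either. Of 6 genes that shed or fold these ligands, only the membrane protease gene MMP14 changed, from 756 and 725 to 1280 and 1210 CPM (adjusted p = 6.2e-06). The chaperone gene HSPA5 was at 760 and 758 against 840 and 850 CPM (adjusted p = 0.15).

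Around CD47, 1 of 8 tested genes was higher and 2 lower. THBS1, a secreted ligand of CD47, fell from 2490 and 2510 to 738 and 723 CPM (adjusted p = 1.1e-09). QPCTL, the enzyme that modifies CD47 so that SIRPA can bind, fell from 34 in both EGFP positive libraries to 24 and 18.3 CPM (adjusted p = 0.0033). B2M, the light chain of MHC class I, rose from 200 and 194 to 244 and 278 CPM (adjusted p = 0.0042).

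Known regulators of PD-L1 had 3 higher and 5 lower of 27 tested, with a median log2 fold change of -0.03. HIF1A, which activates CD274 in hypoxia, rose from 276 and 279 to 399 and 463 CPM (adjusted p = 1.4e-04). STAT2, of the interferon pathway, rose from 37.5 and 38.9 to 51.2 and 52.9 CPM (adjusted p = 0.0078), and CDK4 from 123 and 117 to 156 and 143 CPM (adjusted p = 0.019). EGFR fell from 594 and 608 to 482 and 476 CPM (adjusted p = 0.0059). HIP1R, which directs PD-L1 to the lysosome, fell from 90 and 88.2 to 72.1 and 66.1 CPM (adjusted p = 0.014). MYC fell from 177 and 172 to 144 and 139 CPM (adjusted p = 0.019). JAK1 (adjusted p = 0.02) and TRAPPC4 (adjusted p = 0.025) were the other lower genes, and were not followed singly through the alternatives. IRF1, the factor best known at the interferon element shown above, was at 21.6 and 21.8 against 22.8 and 24.9 CPM, short of the threshold (adjusted p = 0.53). JAK2 did not pass either (adjusted p = 0.83).

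Costimulatory genes of the TNF family had 2 higher and 2 lower of 5 tested. TNFSF15 fell from 14.5 and 9.9 to 3.62 and 4.28 CPM (adjusted p = 2.6e-04). CD40 fell from 38.2 and 35.3 to 27.2 and 25.5 CPM (adjusted p = 0.01). TNFRSF14, the ligand of BTLA and CD160, rose from 1.56 and 2 to 4.34 and 4.97 CPM (adjusted p = 0.0061). TNFSF9, the ligand of 4-1BB, rose from 3.63 and 3.12 to 6.75 and 5.91 CPM (adjusted p = 0.02).

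A mixed list of other recognition genes, drawn up around ligands of inhibitory receptors, had 4 higher and 0 lower of 9 tested. The galectin genes LGALS3 (76.5 and 66.6 against 112 and 115 CPM, adjusted p = 2.6e-04) and LGALS1 (621 and 545 against 1000 and 815 CPM, adjusted p = 3.8e-04) rose. CD58, which binds the costimulatory receptor CD2, rose from 18.3 in both EGFP positive libraries to 26.3 and 32.1 CPM (adjusted p = 0.0036). CD99 rose from 108 and 102 to 128 and 136 CPM (adjusted p = 0.019).

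**Figure D4:**
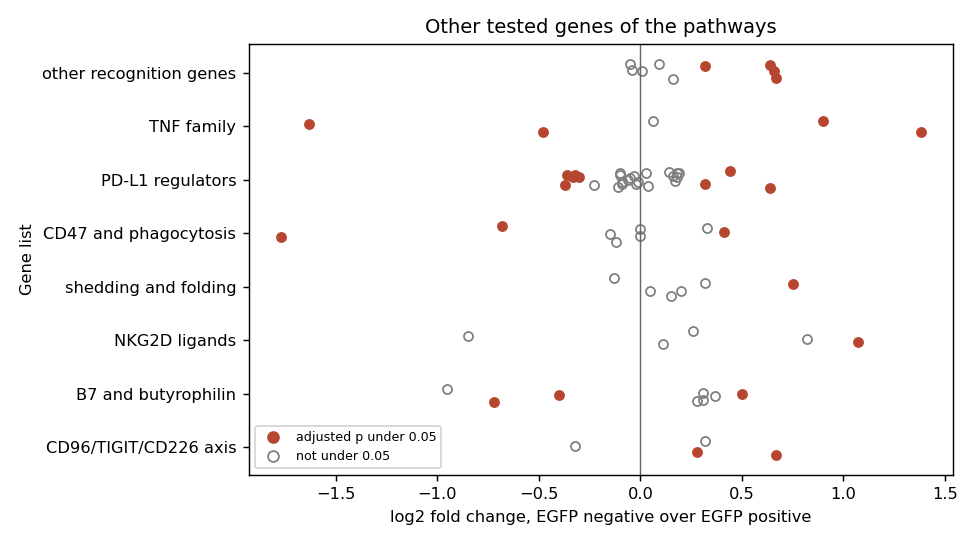
Log2 fold change (EGFP negative over EGFP positive) of the 72 tested genes of the lists, 1 point per gene and list, filled where the adjusted p was under 0.05. Filled points lie on both sides of 0 in 4 lists, from THBS1 on the left of the CD47 row to TNFRSF14 on the right of the TNF row.

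The genes around CD96 did not share its change. Of 6 tested genes within 500 kb, 0 were higher and 1 lower, PHLDB2 (71.8 and 73.1 against 47.4 and 54.2 CPM, adjusted p = 0.0028). Among all tested genes 9.4% were higher and 9.46% lower. ZBED2, NT5C3AP2 and NECTIN2P1 lie within the span of CD96 without sharing exon bases. ZBED2 had at most 1 count per library and NT5C3AP2 at most 3, and NECTIN2P1 is a pseudogene copy of NECTIN2. NECTIN2P1 had 22, 19, 28 and 34 counts, which was 0.947 to 1.55% of the NECTIN2 count of the same library, and did not pass (adjusted p = 0.33). How far its reads came from NECTIN2 was not tested. NECTIN3, another nectin, lies 348.6 kb from CD96 and did not pass (adjusted p = 0.058).

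Within 500 kb of PVR, 2 of 19 tested genes were higher and 0 lower. They were BCL3 (6.06 and 6.94 against 16.2 and 12.7 CPM, adjusted p = 8.1e-04) and BCAM, a laminin receptor (25.9 and 25.4 against 61.8 and 51.9 CPM, adjusted p = 1.2e-05), both between PVR and NECTIN2 and opposite in direction to PVR. None of 8 tested genes around CD274 passed by edgeR. Of 26 around MICA 2 were lower, the MHC class I gene HLA-B (50.6 and 48.2 against 27.5 and 31.3 CPM, adjusted p = 3.4e-04) and VARS1 (adjusted p = 0.0093). Around ULBP2, RAET1E was higher and the pseudogene CCT7P1 lower of 18. Overlapping genes in these windows had at most 12 counts per library. Where exon bases are shared, such counts do not show how many fragments fell on them. For comparison with the numbers called in these windows, 9.4% of all tested genes were higher and 9.46% lower.

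**Figure D5:**
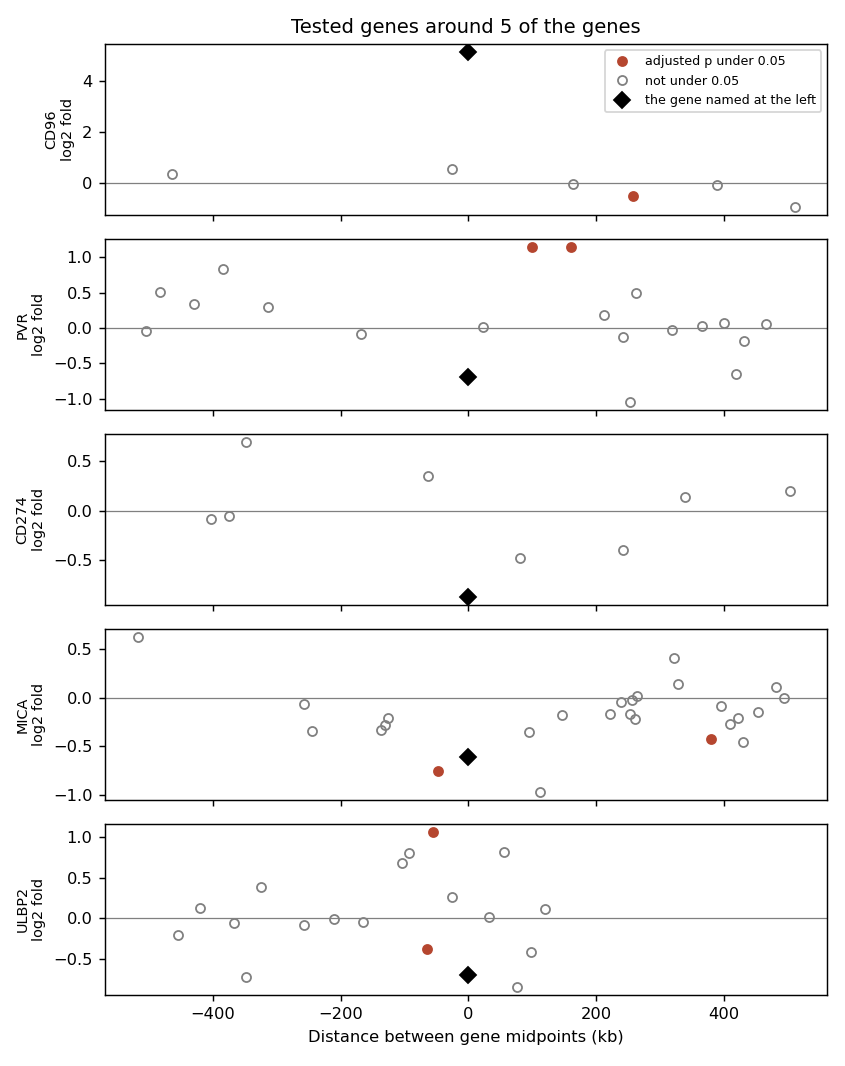
Log2 fold change of tested genes within 500 kb of CD96, PVR, CD274, MICA and ULBP2 against the distance between midpoints in kb (diamond, the gene itself; filled points, adjusted p under 0.05; each panel has its own vertical scale). No neighbour approaches the 5.15 of CD96.

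Of 10416 other protein-coding genes with at least 5 CPM in the higher group, 5 had the profile over the 4 libraries closest to that of CD96, by Euclidean distance of centred log2 CPM. They were SPANXB1 (2.16 and 1.39 against 90.1 and 87 CPM, distance 1.40), ALDH3A1 (1.47), COL6A2 (1.56), GPRC5C (1.61) and SCNN1A (1.70). With 4 libraries, this likeness says little more than that all 5 were very low in EGFP positive and present in EGFP negative cells.

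Gene counts summed to 11445076 to 12635576 per library, and 3 counts corresponded to 0.241 to 0.26 CPM. Intervals and floors cover counting error only. As a check of the labels, H2BC11, an H2B gene, was at 669 and 638 CPM in EGFP positive and at 7.07 and 5.48 CPM in EGFP negative libraries. Whether these counts came from the cells' own gene or from the H2B-EGFP construct was not tested.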

How the data were processed

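The 4 libraries were stranded and made after polyA selection, which the labels' protocols state. The authors deposited raw fragment counts per gene name. They used featureCounts 2.0.1 on exons of the GENCODE 46 basic annotation, with paired reads, no strand option and no option to keep fragments that fit several places or genes, per the file headers. For the aligner, the name is not given in the sources used here, and the submitters' processing notes name GRCh37 and hg19. Coordinates printed are those of the tables, on GRCh38. Group and number came from the labels. Here the counts were filtered with edgeR's filterByExpr (minimum count 10, total 15; 16413 genes left), scaled by TMM and tested with edgeR 4.0.16 (quasi-likelihood, all 4 libraries, group only, Benjamini-Hochberg over all genes at 0.05, two-sided). An exact permutation of 2 against 2 cannot go below p = 0.33. CPM and levels per exon length were computed from these counts. Members and lists were chosen with earlier results of these data known. Within lists, up to 6 genes with the smallest adjusted p under 0.05 were named, and the most abundant where fewer than 2 passed. Marker genes, IRF1, JAK1, JAK2, TRAPPC4, TIGIT, PVRIG, CD226, PDCD1, CD80, CD86, RAET1L and NECTIN3 were named outside that rule after their values were seen. Replicates differed by more than counting noise (chi-square per degree of freedom 2.06 in EGFP positive, 6.15 in EGFP negative). The script was checked on simulated counts. Alternatives were RLE and upper quartile scaling, no filter, a stricter filter (1 CPM in 2 libraries, summed count 100), DESeq2 1.42.0, limma-voom (limma 3.58.1), the replicate number as a block, and each library left out.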

Additional observations from a re-analysis of the deposited data

How the results depend on the processing

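Of the genes changed overall (3095; 1543 higher, 1552 lower), DESeq2 called 2032, with 992 lower, and the fit with the replicate number as a block 4704, with 2407 lower. Leaving out 1 library gave 1452 to 4942 in all, 720 to 2477 higher and 715 to 2465 lower, the smallest counts coming without an EGFP positive library. Among the 72 other pathway genes (26 called; 15 higher, 11 lower) leaving out 1 library gave 10 to 33 calls, 7 to 20 higher and 3 to 13 lower. With the replicate block there were 30. Of the 10 immune recognition genes, 7 were past the threshold; 4 with no filter on low counts, 3 by DESeq2, 8 with the replicate block, which added NECTIN2, and 3 to 8 when 1 library was left out, NECTIN2 being added without EGFP negative replicate 2. The cause was not tested. The replicate numbers are only numbers in the labels, and deviations of same-numbered libraries correlated at 0.114 across genes, so the block is no evidence of pairing. The direction held under all 11 alternatives for 9 of the 10 genes, and that of PDCD1LG2, with 20 to 44 counts, reversed to 0.06 without EGFP positive replicate 2 (range over libraries left out -0.87 to 0.06). Scaling moved the median of all genes by at most 0.015 on the log2 scale. With 2 libraries a group, differences like those of NECTIN2 and MICB were not resolved.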

Other observations

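Genes near CD276 and CD47, outside the naming rule and looked at after their values were seen, were read in the same way. Of 6 tested genes within 500 kb of CD276, 3 were higher in EGFP negative cells and 0 lower by edgeR: LOXL1, a collagen crosslinking enzyme (14.4 and 13.8 against 25.6 and 24.1 CPM, adjusted p = 8.2e-04), STOML1 (13.3 ± 1.01 against 18.9 ± 0.544 CPM, SD, n = 2, adjusted p = 0.028) and PML, an interferon-inducible nuclear body protein (59.3 and 59.6 against 103 and 90.8 CPM, adjusted p = 1.7e-04). Of 6 tested genes within 500 kb of CD47, 2 were higher and 0 lower: BBX (123 and 128 against 146 and 166 CPM, adjusted p = 0.028) and MYH15 (2.6 and 2.26 against 7.55 and 8.31 CPM, adjusted p = 2.8e-04). Over all tested genes 9.4% were higher.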
